A study of Mus musculus with 6 samples.

Results

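The rearrangements described here are those of the T-cell receptor beta chain (TCRB) whose complementarity-determining region 3 (CDR3) is long, with 16 or more residues counted from the conserved cysteine to the final phenylalanine. They were chosen on the deposited CDR3 sequence, which had to start with C, and numbered 422 of the 4409 rearrangements listed over all samples (9.57%), with 551 of 7043 counts (7.82%). Length chose them, so their length is a description and was not tested. They were set beside the 3219 rearrangements of 13 to 15 residues. The other 768 were shorter or did not start with cysteine, among them 1 of 16 or more letters. All 422 ended in phenylalanine, and in all 4368 rearrangements that start with cysteine the nucleotides translated to the listed residues up to the last one, which lies outside the 87 bases given.

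The study took T follicular regulatory (Tfr) cells, CD4 T cells that express Foxp3 and restrain B-cell help in the follicle, from spleens of 3 mice of genotype Foxp3GFP. The titles name a superior and an inferior sample for each mouse, words that the labels do not define and that serve here as group names. All 6 samples share tissue and genotype, and no treatment, age or sex is given in the sources used here. The assay was immunoSEQ for mouse TCRB at survey resolution on genomic DNA, so no gene's expression was measured and the cell type could not be checked against markers. The count of a rearrangement is called its templates (input DNA molecules), although the files do not say whether templates or reads were counted. Sums of 667 to 1855 templates per sample in 455 to 1112 rearrangements limit what can be seen of rare groups, and all intervals below cover counting error only.

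A TCRB gene is assembled in the developing thymocyte by joining a V, a D and a J segment on mouse chromosome 6. Before each joint is sealed, nucleases trim the segment ends and the enzyme terminal transferase adds bases that are in no germline segment. The CDR3 spans both joints and forms the loop that lies over the peptide in the binding groove, so its length and middle residues differ from cell to cell. Long loops can arise from longer germline ends, less trimming, a longer D remnant or more added bases.

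The sequences show this layout. Each is the CDR3 from the cysteine codon to the codon before the final phenylalanine, 5′ to 3′, as deposited. Lower case marks the V and J ends, that is the bases that match the most common base of that segment over all rearrangements for as long as at least 70% of them share it. Capitals mark the junction between these ends, which holds the D remnant, added bases and any germline base beyond the conserved end. The first 5 are the longest of the series, with 19 residues and 1 template each.
TRBV31/TRBJ2-5: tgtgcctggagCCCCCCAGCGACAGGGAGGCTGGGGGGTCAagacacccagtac
TRBV5/TRBJ2-4: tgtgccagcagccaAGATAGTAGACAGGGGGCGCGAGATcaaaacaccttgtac
TRBV1/TRBJ2-4: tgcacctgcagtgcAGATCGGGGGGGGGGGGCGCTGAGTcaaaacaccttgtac
TRBV19/TRBJ2-5: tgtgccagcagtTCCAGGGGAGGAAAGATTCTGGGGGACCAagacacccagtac
TRBV13-2/TRBJ2-4: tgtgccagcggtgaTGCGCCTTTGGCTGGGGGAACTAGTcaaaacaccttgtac
The next 4 had the most templates of all long rearrangements.
TRBV3/TRBJ1-2: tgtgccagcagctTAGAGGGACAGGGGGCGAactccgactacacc
TRBV13-1/TRBJ2-3: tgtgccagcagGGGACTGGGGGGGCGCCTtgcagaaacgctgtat
TRBV2/TRBJ2-1: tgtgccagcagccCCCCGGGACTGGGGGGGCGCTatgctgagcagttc
TRBV13-2/TRBJ2-2: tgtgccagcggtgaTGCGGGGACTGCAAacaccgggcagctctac
The last 3 were each found more than once. The TRBV2 pair spells the same residues with nucleotides that differ at 1 base of the CDR3, the last of the junction. Both forms were listed in both samples of mouse 3. The TRBV13-3 rearrangement was listed in mice 1 and 3.
TRBV2/TRBJ2-4: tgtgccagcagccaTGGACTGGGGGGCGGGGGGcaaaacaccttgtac
TRBV2/TRBJ2-4, other nucleotides: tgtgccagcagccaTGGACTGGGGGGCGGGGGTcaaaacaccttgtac
TRBV13-3/TRBJ2-4: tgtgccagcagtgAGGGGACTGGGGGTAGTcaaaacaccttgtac

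The share of long CDR3s ran from 7.69% to 11.7% over the 6 samples. In superior samples, 35, 65 and 69 rearrangements of mice 1, 2 and 3 were long, or 7.69% (95% Wilson interval 5.58 to 10.5), 9.49% (7.51 to 11.9) and 9.08% (7.24 to 11.3) of their rearrangements. The inferior samples held 81, 66 and 106, or 9.70% (7.87 to 11.9), 11.7% (9.34 to 14.7) and 9.53% (7.94 to 11.4). The share was lower in the superior sample of each mouse, and the groups lay just apart, since the highest superior and the lowest inferior value were 9.49% and 9.53%. The superior mean was 8.75% ± 0.942 and the inferior mean 10.3% ± 1.23 (SD, n = 3 samples). The difference, superior minus inferior, was -1.57 points (two-sided exact permutation p = 0.1, the smallest that 3 against 3 allows, adjusted 0.2 over 4 exact tests). By templates it was -0.839 points (exact permutation p = 0.5), with shares of 6.45% to 7.92% in superior and 7.66% to 9.02% in inferior samples, and for CDR3s of 17 or more residues -0.771 points. With rearrangements of the same V, CDR3 nucleotides and J merged it was -1.05 points (exact permutation p = 0.5). The titles put both samples in 1 mouse and do not say what separates them, so these p-values measure only the spread between the samples. They do not use the pairing by mouse. With it, the difference of -1.57 points had an exact sign-flip permutation p of 0.25, the smallest that 3 mice allow.

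Lengths thinned out quickly past the threshold. Just outside it, 902 rearrangements had 15 residues, 17.2% to 22.4% of a sample, and just inside it 324 had 16, or 5.93% to 8.26%. There were 75 of 17 residues, 18 of 18 and 5 of 19, and nothing longer was listed.

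**Figure D1:**
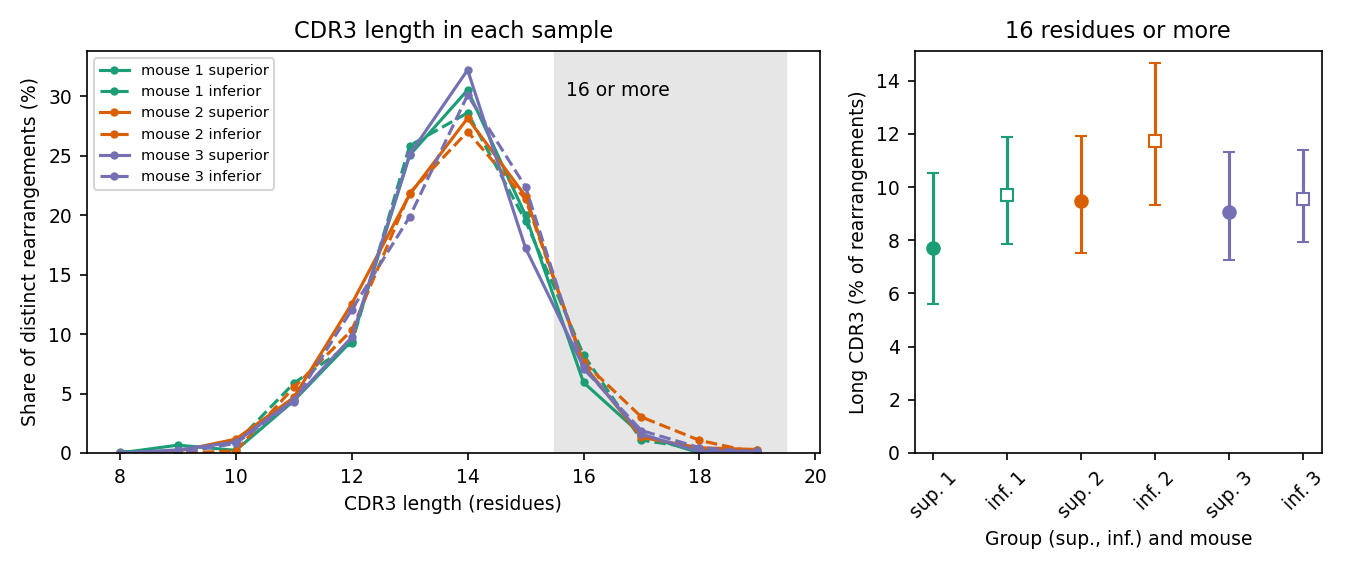
Left, share of distinct rearrangements (y axis, percent) at each CDR3 length in residues (x axis), 1 line per sample, with the long class shaded. Right, share of rearrangements with 16 or more residues in each sample (filled circles superior, open squares inferior, colour by mouse) with 95% Wilson intervals. The intervals of the 6 samples overlap, with shares between 7.69% and 11.7%.

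The bases of the CDR3 were divided into V end, junction and J end. The ends cannot exceed the conserved stretch of their segment, so any further germline base counts as junction, and the division does not measure how much germline sequence was kept. Values are means over the distinct rearrangements of a mouse, a rearrangement listed in both of its samples counted once, which left 414 long ones and 3092 of 13 to 15 residues. The 3 parts could be set in 413 and 3088 of them. The junction held 17.6, 18.0 and 17.8 bases in the long rearrangements of mice 1, 2 and 3, and 12.5, 12.6 and 12.5 in those of 13 to 15 residues. The means over mice differed by 5.25 bases. The J end held 14.8 ± 0.178 bases in long rearrangements against 13.7 ± 0.0538, a difference of 1.12, and the V end 13.2 ± 0.0888 against 12.6 ± 0.0712, a difference of 0.618 (SD, n = 3 mice). A longer CDR3 must hold more bases somewhere, so only the division among the 3 parts is described. Across lengths the junction grew from 10.5 bases at 13 residues to 16.9 at 16 and 26.8 at 19, whereas the V end stayed between 12.4 and 13.3. Guanine made up 46.8% to 47.2% of the junction bases in long rearrangements and 43.4% to 45.6% in those of 13 to 15 residues, and the ranges of the mice did not overlap.

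**Figure D2:**
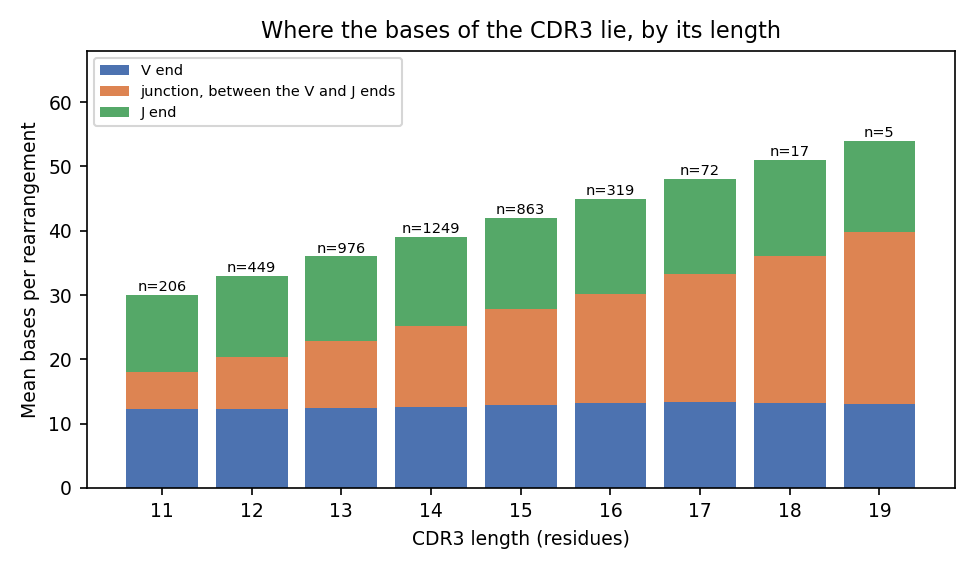
Mean bases per rearrangement (y axis) in the conserved V end, the junction and the conserved J end, stacked, for each CDR3 length in residues (x axis), over the distinct rearrangements of the 3 mice with their number above each bar. The junction part grows from 10.5 bases at 13 residues to 26.8 at 19, and the J end from 13.1 to 14.2.

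The V segments seen more often among long rearrangements were TRBV5, TRBV2, TRBV1, TRBV24, TRBV21 and TRBV4. Shares below are of the distinct rearrangements of a mouse. Germline ends are a part of the length that chose the members, so V, D and J use is described with no test. TRBV5 (chromosome 6, 41062359 to 41062803, GRCm38.p6, the assembly of mm10) held 19.1%, 12.5% and 12.3% of the long rearrangements of mice 1, 2 and 3, against 7.14% to 8.95% at 13 to 15 residues, so it was higher in all 3 mice. TRBV2 (41047556 to 41047995) held 14.8%, 9.38% and 10.5%, against 6.75% to 8.21%. TRBV1 (40891296 to 40891885) held 6.09%, 12.5% and 9.36%, against 4.28% to 4.55%. These 3 segments gave 59, 47 and 39 of the 414 long rearrangements, and their conserved V ends had 14, 15 and 14 bases. TRBV4, also higher, had 12, and TRBV13-2, which was not higher, had 14. TRBV4 rested on 12 long rearrangements, and in mouse 3 it held 2.34% against 2.28%. TRBV24, with a conserved end of 13 bases, held 4.19% ± 1.40 (SD, n = 3 mice) against 1.72% ± 0.659. TRBV21 had a conserved V end of 17 bases and rested on 5 long and 6 other rearrangements.

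TRBV3, TRBV14, TRBV20, TRBV29 and TRBV30 were seen less often among long rearrangements, and for the other segments the ranges of the mice overlapped. TRBV20 gave 4 long rearrangements, 0.970% ± 0.887, against 4.57% ± 0.870 at 13 to 15 residues. TRBV29, which RefSeq lists as a pseudogene, gave 2, and TRBV14 gave 1. TRBV30 gave 0 of 414, which allows up to 0.725%, above its mean share of 0.323% at 13 to 15 residues (10 of 3092). These counts are too few to show that TRBV30 was lower, although its ranges lay apart. TRBV14 gave 0 in mice 1 and 3, which allows up to 2.61% and 1.75%. Both limits are above its 1.61% and 0.910% at 13 to 15 residues in these mice. Its counts are thus also too few to show that it was lower there. TRBV3 held 6.96%, 7.03% and 7.02% of long rearrangements in mice 1, 2 and 3, against 9.29% to 11.4% of the others. TRBV13-2, the second most used among long rearrangements with 12.5% ± 1.19, held 13.2% ± 0.296 of the others and its ranges overlapped. TRBV19 ranged from 1.74% in mouse 1 to 10.9% in mouse 2, against 10.5% to 12.4%. TRBV16, TRBV13-3, TRBV13-1 and TRBV31 held 6.44%, 4.34%, 4.25% and 2.44% of long rearrangements, with ranges that overlapped those of the others, and TRBV4 held 2.95% against 2.26%. In all, the ranges of the 3 mice lay apart for 11 of the 23 V segments with 10 or more rearrangements, 6 higher (26.1%) and 5 lower (21.7%) in long rearrangements.

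The ratio of the share among long rearrangements to that at 13 to 15 residues was lowest for TRBJ1-1 (0.142) and TRBJ2-7 (0.339) among the 12 J segments with 10 or more rearrangements. TRBJ2-7 (chromosome 6, 41543810 to 41543856), which has 47 bases and was the most used J segment at 13 to 15 residues, held 10.4%, 5.47% and 6.43% of long rearrangements in mice 1, 2 and 3, against 20.1% to 24.9%. TRBJ1-1, with 48 bases, held 0.870%, 0.781% and 1.75%, against 7.26% to 8.88%. TRBJ1-2, also of 48 bases, held 2.76% ± 1.65 against 5.23% ± 0.0977 (SD, n = 3 mice). Higher shares were found mainly in the TRBJ2 cluster. TRBJ2-4 led the long rearrangements with 12.2%, 15.6% and 19.3%, against 7.74% to 9.42%, followed by TRBJ2-3 with 14.6% ± 4.33 against 6.74% ± 0.588, TRBJ2-2 with 13.3% ± 4.79 against 6.61% ± 0.910, and TRBJ2-1 with 13.2% ± 2.92 against 10.2% ± 0.805.

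Segment length and use did not run in step for every J. TRBJ2-3, TRBJ2-4 and TRBJ2-5 all have 49 bases, but the ratio of the share among long rearrangements to that at 13 to 15 residues was 2.16, 1.79 and 0.762. TRBJ1-5 has 50 bases and a ratio of 0.523, against 1.3 for TRBJ2-1 and 1.27 for TRBJ1-3 of the same length. TRBJ2-2 and TRBJ1-4, of 51 bases, had ratios of 2.02 and 1.32, and TRBJ1-6, the longest with 53, had 1.25. The conserved J end was 17 bases for TRBJ2-2 and TRBJ2-3, 12 for TRBJ2-7 and 13 for TRBJ2-5, but 14 for both TRBJ1-1 and TRBJ2-1, with ratios of 0.142 and 1.3. The mice's ranges lay apart for 5 of 12 J segments in the higher (41.7%) and 4 in the lower direction (33.3%). The most frequent pair among long rearrangements was TRBV13-2 with TRBJ2-1, 14 of 414 over 3 mice, or 3.38% against 1.23% of the others, followed by TRBV5 with TRBJ2-4, 12 of 414, or 2.90% against 0.679%.

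TRBD2 was the main D segment of long rearrangements. TRBD2 (chromosome 6, 41542163 to 41542176) has 14 bases and TRBD1 (41533201 to 41533212) has 12. TRBD2 was listed in 62.6%, 66.4% and 55% of the long rearrangements of mice 1, 2 and 3, against 35.0% to 39.5% at 13 to 15 residues. No D was named in 1.74%, 2.34% and 4.68% of long rearrangements, against 16.4% to 17.1%, and TRBD1 was listed in 35.8% ± 4.55 against 45.7% ± 2.05 (SD, n = 3 mice). Since TRBD2 lies downstream of the TRBJ1 cluster, D use was also taken within each cluster. The TRBJ2 cluster held 74.7% ± 1.29 of long rearrangements and 68.1% ± 0.902 of the others. Within it, TRBD2 made up 84.7%, 90.1% and 72.4% of the named D segments in long rearrangements, against 64.2%, 60.5% and 59.6%. No D was named in 2.22% ± 1.02 of long TRBJ2 rearrangements, against 15.3% ± 1.06. D naming thus differed with length, and its part in the TRBD2 shares was not tested. Within the TRBJ1 cluster, 5 of 104 long rearrangements were listed with TRBD2, or 4.79% ± 4.46 of the named D segments against 8.16% ± 2.74. Since TRBD2 lies downstream of these J segments, such D names may be wrong. By sample, the share with TRBD2 ran from 50.7% in the superior sample of mouse 3 to 72.7% in the inferior sample of mouse 2. It was higher in the superior sample in mouse 1 and higher in the inferior sample in mice 2 and 3.

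**Figure D3:**
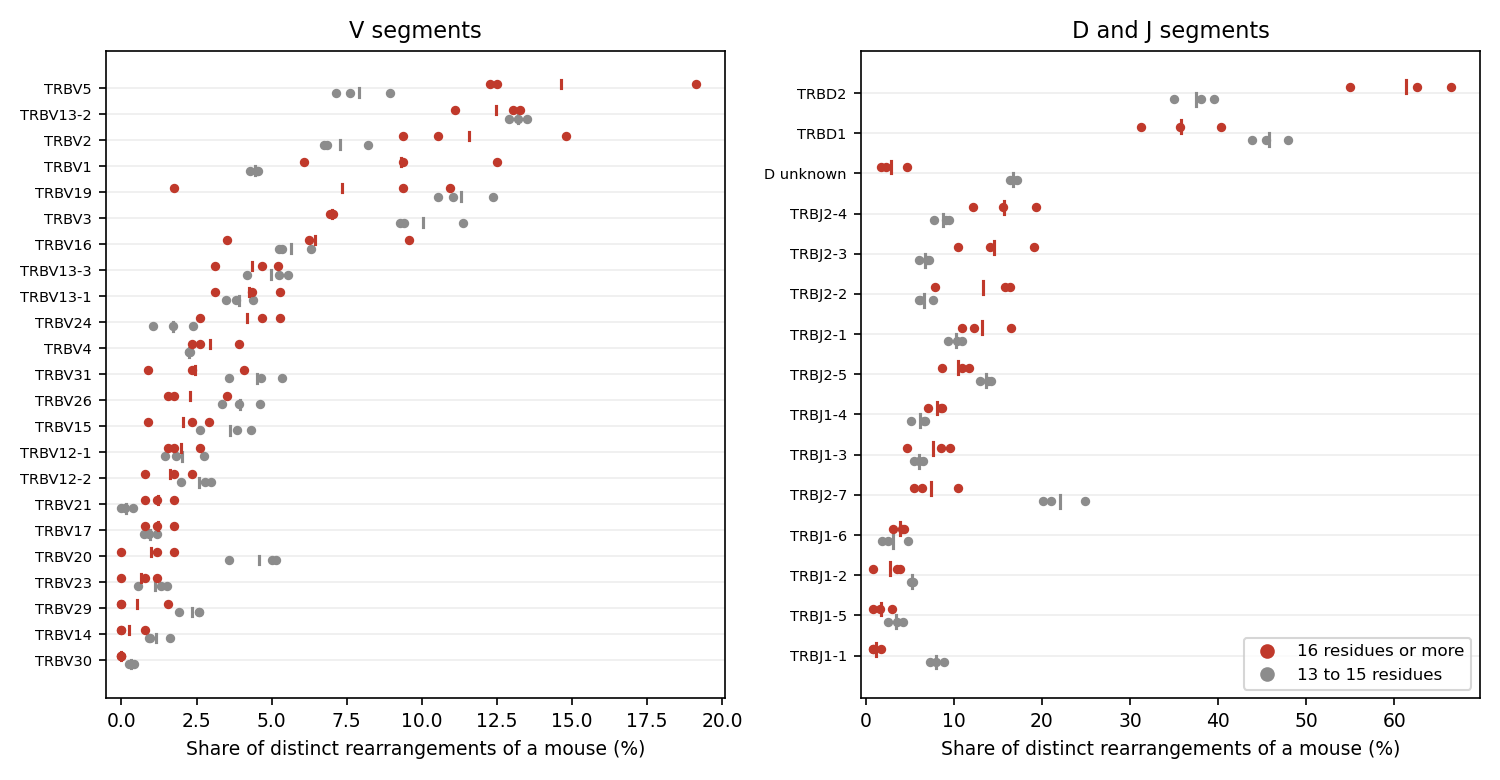
Share of the distinct rearrangements of a mouse (x axis, percent) that use each V segment (left) and each D or J segment (right). Points are the 3 mice and short bars their means, in red for CDR3s of 16 or more residues and in grey for 13 to 15. The red points of TRBJ2-7 lie below the grey ones and those of TRBD2 above.

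V and J use of the long rearrangements did not pass the test between superior and inferior samples. Of 13 V and 10 J segments tested with edgeR's quasi-likelihood method, 0 and 0 were called (0% of each), and 0 had an unadjusted p under 0.05. DESeq2 gave 0 calls in either table, also before adjustment. The lowest adjusted p was 0.967 for V and 0.996 for J segments (edgeR). TRBV5, TRBV2 and TRBV13-2 had log2 differences of 0.20 (SE 0.44), 0.02 (SE 0.52) and -0.21 (SE 0.45), superior over inferior. TRBJ2-4 had one of 0.05 (SE 0.37). Each SE of an edgeR difference was computed back from its test, as the unsigned difference over the square root of the F statistic. Larger differences were 0.83 (SE 0.52) for TRBJ1-4, -0.94 (SE 0.90) for TRBJ1-2 and -0.79 (SE 0.59) for TRBV3, none past the threshold. All rest on 35 to 106 long rearrangements per sample.

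Glycine led the middle of the loop in long CDR3s and in those of 13 to 15 residues. The middle was taken as the CDR3 without its first 4 and last 6 residues, which left 6.21 to 6.39 residues per long rearrangement of a mouse and 3.92 to 3.99 per rearrangement of 13 to 15. Glycine, the smallest residue, was the most common in both. It held 30.7%, 32.8% and 30.8% of the middle residues of long rearrangements and 29.5%, 27.8% and 28.3% of the others. Serine held 8.26%, 8.92% and 7.27%, against 6.28% to 6.98%. Threonine held 4.20%, 5.38% and 4.75%, against 6.20% to 6.39%, and methionine 0.119% ± 0.0237 against 0.337% ± 0.0627 (SD, n = 3 mice), on 3 and 40 residues. Ranges lay apart in the higher direction for 4 of 20 residues (20%), glycine, serine, asparagine and proline. In the lower direction they did for 4 (20%), threonine, glutamate, isoleucine and methionine. The middle can still hold germline residues. Conserved V ends of TRBV5, TRBV2 and TRBV1 span 4.67 to 5 codons. Conserved J ends of TRBJ2-2 and TRBJ2-3 span 5.67 codons before the final phenylalanine, which is 1 of the 6 residues dropped. These segments were more frequent among long rearrangements, and the part of V and J use in the residue shares was not tested.

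None of these residue differences passed the test. edgeR's quasi-likelihood test called 0 of 19 residues (0%), with 2 at unadjusted p under 0.05, threonine and methionine. DESeq2 also gave 0 calls, and 0 residues under that level before adjustment. In simulated counts edgeR called 40% of residues changed 1.5-fold, so differences of that size could be missed. The changed residues were drawn at random from the 19, and no smaller change was simulated. The recovery for glycine, with 4310 residues over both classes, was therefore not measured. The log2 difference, long over 13 to 15 residues, was -0.40 for threonine (SE 0.10), -1.47 for methionine (SE 0.34) and 0.29 for serine (SE 0.11). It was 0.27 for asparagine (SE 0.10), 0.14 for glycine (SE 0.07) and -0.28 for aspartate (SE 0.12). All had an edgeR adjusted p of 0.275. These SE were also computed back from the F statistic and may understate the error. Methionine, for example, rests on 3 long and 40 other residues. With only the central 3 residues of each middle, 2 residues were called. They were isoleucine at -1.83 and asparagine at -1.70 (edgeR adjusted p = 0.0295 and 0.0305), and asparagine, serine and threonine turned in sign. In the shortest CDR3s compared, these 3 residues are the whole middle, and in long ones only its core. The length rule thus sets how far they lie from the V and J ends, so the calls do not compare like places. Cysteine was in the middle of 0 of 414 long rearrangements, which allows up to 0.725%, and gave 2 middle residues in the 3092 others.

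Glycines were also placed later and more often next to each other in long loops. Counted from the cysteine as 1, glycine was most frequent at positions 8 and 9 of long CDR3s, in 59.2% and 52.7% of 414, and at positions 7 and 8 of those of 13 to 15 residues, in 42.1% and 38.3% of 3092. A pair of neighbouring glycines in the middle was found in 45.2%, 60.2% and 52.6% of the long rearrangements of mice 1, 2 and 3, against 21.9% to 22.5%. A run of 3 was found in 5.22% to 9.38%, against 1.71% to 2.38%. A longer middle has more places for such a run, so these shares are not a comparison at equal length. The position of the middle, counted from the cysteine, also moves with the length that chose the members. The later place of glycine is therefore a description only.

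**Figure D4:**
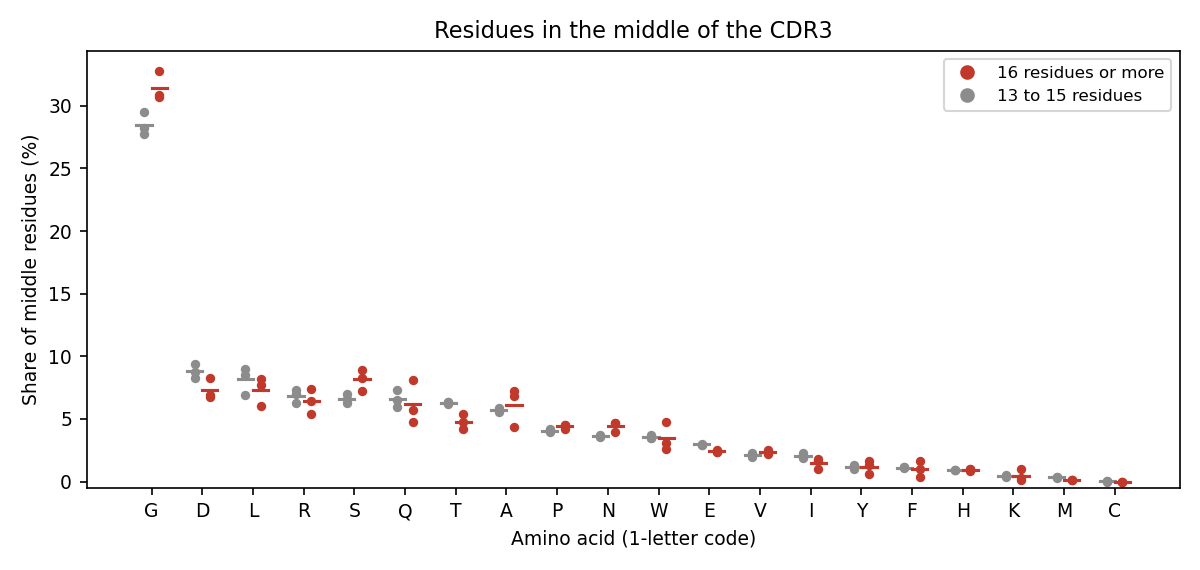
Share of each amino acid among the middle residues of the CDR3 (y axis, percent), with residues in 1-letter code (x axis), red for CDR3s of 16 or more residues and grey for 13 to 15. Points are the 3 mice and bars their means. Glycine leads both classes, at 30.7% to 32.8% and 27.8% to 29.5%.

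Long rearrangements had fewer templates each than those of 13 to 15 residues in 6 of 6 samples. The superior samples of mice 1, 2 and 3 had a mean of 1.23, 1.29 and 1.3 templates per long rearrangement, against 1.48, 1.59 and 1.5. The inferior samples had 1.3, 1.26 and 1.38, against 1.69, 1.73 and 1.68. The lowest mean of the 13 to 15 class, 1.48, was above the highest of the long class, 1.38. Averaged within mice, the difference was -0.318 templates, lower in 3 of 3 mice (two-sided exact sign-flip permutation p = 0.25, the smallest that 3 mice allow, adjusted 0.25 over 4 exact tests). With the 6 samples as pairs, the exact sign-flip permutation p was 0.0312, the smallest that 6 pairs allow, but this takes both samples of a mouse as independent.

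The largest long clones were small. The largest was TRBV3/TRBJ1-2 with 6 templates in the superior sample of mouse 3, and it was not listed in the inferior one. TRBV13-1/TRBJ2-3 in the same sample, and TRBV2/TRBJ2-1 and TRBV13-2/TRBJ2-2 in the superior sample of mouse 2, had 5. The largest of the inferior samples had 3 or 4, among them TRBV13-3/TRBJ1-3 and TRBV2/TRBJ2-2 in mouse 3. At 13 to 15 residues the largest clone of a sample had 6 to 35 templates. Rearrangements of 2 or more templates made up 14.3%, 20% and 17.4% of the long ones in the superior and 23.5%, 19.7% and 24.5% in the inferior samples, against 28.5% to 32.7% and 35.3% to 41.5%.

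J use moved with this difference, and its part in it was not tested. TRBJ2-7 rearrangements had more templates, 2.16 to 2.68 on average per sample at 13 to 15 residues, and they were rarer among long ones. Without TRBJ2-7 the long rearrangements had 1.19 to 1.38 templates and the others 1.28 to 1.52, a difference of -0.145 that was negative in 6 of 6 samples. Among TRBJ2-7 rearrangements alone it was -0.580, on 3 to 9 long rearrangements per sample. Long means were lower in 10 of the 12 J segments and higher for TRBJ1-2 (1.92 against 1.68) and TRBJ1-5 (2.25 against 2.07), which rested on 12 and 8 long rearrangements. Weighted to the J use of the 13 to 15 class, an alternative chosen after seeing the data, the difference was -0.236. By length and without TRBJ2-7, mean templates were 1.40 to 1.43 from 11 to 15 residues, 1.28 at 16 and 1.24 at 17. The difference was -0.247 on average in superior and -0.389 in inferior samples, and these lay just apart, at -0.295 and -0.298 where they were closest (exact permutation p = 0.1, the smallest possible, adjusted 0.2). This test did not use the pairing of the samples by mouse. The superior and inferior values overlapped when rearrangements of the same V, CDR3 nucleotides and J were merged (-0.455 to -0.306 in superior and -0.504 to -0.320 in inferior samples) and for TRBJ2-7 alone.

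**Figure D5:**
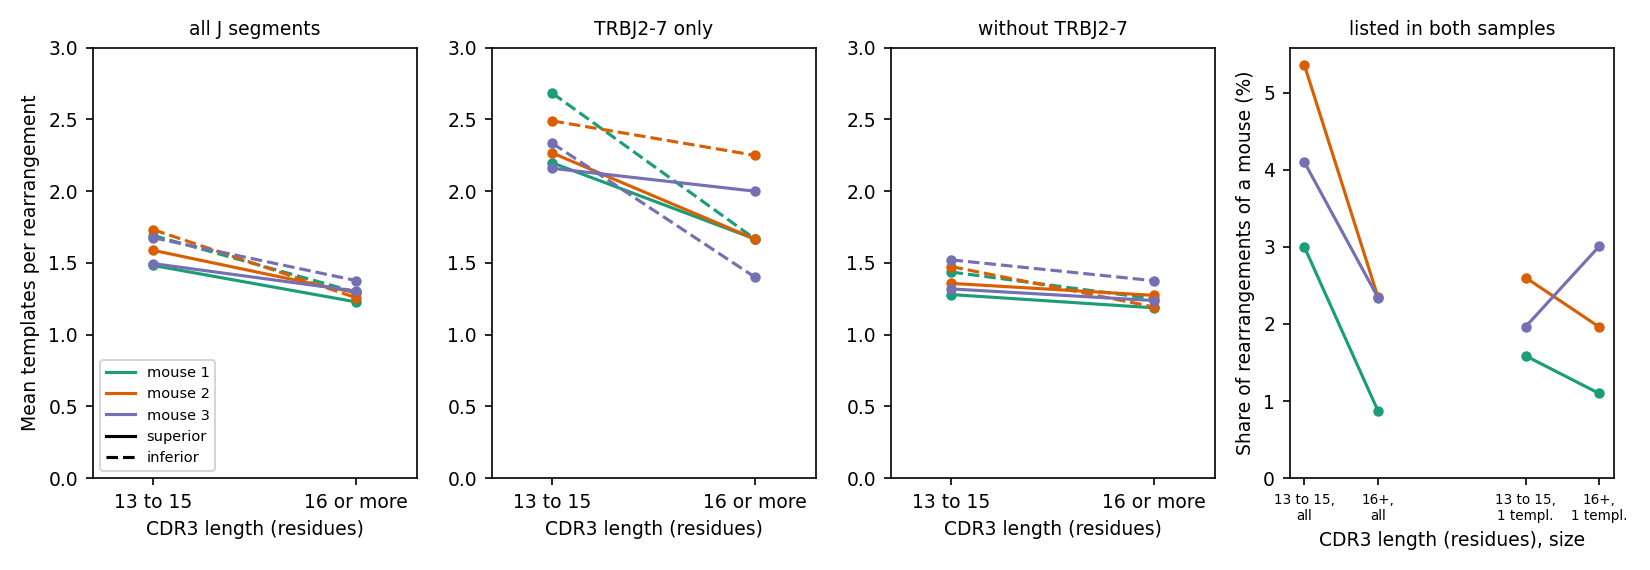
First 3 panels, mean templates per rearrangement (y axis) at 13 to 15 and at 16 or more residues (x axis), 1 line per sample (solid superior, dashed inferior, colour by mouse), over all J segments, for TRBJ2-7 only and without it. Last panel, share of the rearrangements of a mouse listed in both of its samples (y axis, percent), for all rearrangements and for those of 1 template per sample. All lines of the first 3 panels fall, and in the last panel mouse 3 rises among single-template rearrangements.

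Few long rearrangements were found in both samples of a mouse. In mice 1, 2 and 3 they numbered 1 of 115, 3 of 128 and 4 of 171, or 0.870% (95% Wilson interval 0.154 to 4.76), 2.34% (0.800 to 6.66) and 2.34% (0.913 to 5.86). At 13 to 15 residues they numbered 28 of 934, 45 of 840 and 54 of 1318, or 3.0% (2.08 to 4.30), 5.36% (4.03 to 7.09) and 4.10% (3.15 to 5.31). The share was lower for long rearrangements in 3 of 3 mice, with a mean difference of -2.30 points (two-sided exact sign-flip permutation p = 0.25, the smallest possible, adjusted 0.25), and the intervals overlapped in each mouse.

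The difference was close to 0 among rearrangements of 1 template. For rearrangements of 1 template in each sample that lists them, the shares were 1.10%, 1.96% and 3.01% for long ones and 1.59%, 2.60% and 1.96% for the others, a mean difference of -0.0285 points. Those of 2 or more templates were chosen after seeing the data. In mice 1, 2 and 3, 0 of 24, 1 of 26 and 0 of 38 long ones were in both samples. Their Wilson intervals were 0 to 13.8%, 0.682 to 18.9% and 0 to 9.18%. At 13 to 15 residues the shares were 5.92% (3.78 to 9.16), 10.3% (7.33 to 14.2) and 7.55% (5.55 to 10.2). The long share was lower in each mouse, but the intervals overlapped in each. With a threshold of 17 residues the mean difference over all rearrangements turned to 0.235 points. Of the 8 long rearrangements in both samples, 7 had 1 template in each. The other was TRBV13-2/TRBJ2-2, with 5 templates in the superior sample of mouse 2 and 1 in its inferior one. Those with 1 template in each included TRBV1/TRBJ2-4 and both forms of TRBV2/TRBJ2-4 in mouse 3, and TRBV17/TRBJ2-1 in mouse 1. The 2 TRBV2/TRBJ2-4 forms differ at 1 base of the CDR3 and were counted separately among the 8.

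Between mice, 1 long rearrangement recurred. TRBV13-3/TRBJ2-4 was listed with identical nucleotides and 1 template in the inferior samples of mice 1 and 3. With rearrangements joined that share V and J names and CDR3 residues, this was 1 of 380 long combinations, 0.263% (95% Wilson interval 0.0465 to 1.48), against 23 of 2725 at 13 to 15 residues, 0.844% (0.563 to 1.26), and the intervals overlapped. By nucleotides the order was the other way, with 1 of 413 long rearrangements, 0.242% (0.0428 to 1.36), against 6 of 3086, 0.194% (0.0891 to 0.424).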

How the data were processed

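The deposited tables list distinct 87-base TCRB rearrangements with V, D and J names, CDR3 residues, a whole-number count and a productive frequency, a deposited fraction that equals each count over the total of its sample. Per the submitters' processing notes the build is mm10. The sources used here do not give the aligner, clonotype caller or filters. The window ends at a fixed point of the J segment, so a longer CDR3 leaves fewer V bases, 41.1 on average for long rearrangements and 48.1 for those of 13 to 15 residues. The counts are called templates. All 29 V and 14 J names matched RefSeq symbols (GRCm38.p6), which gave coordinates and segment lengths. No germline TCRB sequence was used, so conserved V and J ends were read from the rearrangements themselves.

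Members and lists were chosen with earlier results of these data known. Each distinct rearrangement counted once unless templates are named. The text names the 12 V segments of highest share among long rearrangements and the 5 with the largest and 5 with the smallest ratio to the 13 to 15 class, with all J and D segments of 10 or more rearrangements and all residues. Named rearrangements came from the 2 largest of each sample, the 5 longest, 5 in both samples of a mouse and those in 2 or more mice. Single values were tested with exact permutation tests, 20 assignments of 3 against 3 or 8 sign flips over mice, at 0.05. Segment and residue counts were tested with edgeR 4.0.16 (R 4.3.3, quasi-likelihood, common dispersion, totals as library size, features of 10 or more, Benjamini-Hochberg adjustment), with the mouse as a block for residues. DESeq2 1.42.0 was an alternative. After the real fits, edgeR was also run on simulated counts with some features changed. Of residues changed 1.5, 2 and 3-fold, 40%, 85% and 97.5% were called. For V segments the shares were 2.5%, 22.5% and 37.5%, and for J segments 0%, 12.5% and 67.5%. Of unchanged residues, 22.6% were called in the 3-fold setting. The simulated dispersion was below that fitted to the V segments and to the residues. The remaining work ran in Python 3.11.15 with scipy 1.17.1, pandas 2.3.3 and numpy 2.4.6.

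Superior and inferior samples are paired by animal, from the titles. Deviations from group means in the use of long rearrangements correlated at -0.0632, -0.257 and -0.176 over 13 V segments and at 0.555, 0.312 and 0.294 over 10 J segments in mice 1, 2 and 3.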

Additional observations from a re-analysis of the deposited data

How the results depend on the processing

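Of 69 alternatives to the 6 tested results, 66 gave the same direction and side of the threshold, or the same count of calls. Apart from the sign flips over 6 samples, the exact tests could not pass 0.05. The V and J fits have little power at these counts. The residue fit called 40% of simulated 1.5-fold changes, and smaller changes were not simulated. The agreement therefore does not show stability. The others were sharing at 17 or more residues, which turned to 0.235 points, clone size with the 6 samples as pairs, at the same -0.318 templates past the threshold, and the central 3 residues, with 2 residues called. Sharing among rearrangements of 1 template differed by -0.0285 points, with mouse 3 turned (3.01% against 1.96%). Asparagine turned to -0.15 without the first 3 and last 5 residues and to -1.70 in the central 3, serine to -0.12 and -0.45, and threonine to 0.11 in the central 3. Without each mouse in turn, the difference in clone size was -0.355 to -0.285, in sharing -2.57 to -1.94 and in the share of long CDR3s -2.13 to -1.23. With the mouse number as a replicate block, the latter stayed at -1.57 points (exact sign-flip permutation p = 0.25), and V and J calls stayed at 0, as did residue calls without the block. With rearrangements of the same V, CDR3 nucleotides and J merged, clone size differed by -0.398, sharing by -2.51 and the share of long CDR3s by -1.05 (exact permutation p = 0.5). Sharing rests on 8 long rearrangements found in both samples of a mouse.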

Other observations

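Of the 422 long rearrangements, 24 (5.69%) had another rearrangement in their sample that differed at 1 of the 87 bases, against 165 of 3219 (5.13%) at 13 to 15 residues, with 3.03% to 8.70% and 3.49% to 6.80% by sample. Merging by V segment, CDR3 nucleotides and J segment left 391 long and 2898 other clonotypes, or 1.08 and 1.11 listed rearrangements per clonotype.

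The same CDR3 nucleotides stood under 2 or more V names in 1 sample for 2 of the 422 long rearrangements and 9 of the 3219 others.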
